A study of Homo sapiens with 6 samples.

Results

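The transcripts described here are those of 10 genes that hold the protein folding machinery of the endoplasmic reticulum (ER) and its stress sensors. They are the chaperones *HSPA5*, *HSP90B1*, *CALR*, *PDIA4* and *DNAJB9*, and the sensors and effectors *XBP1*, *ERN1*, *ATF6*, *EIF2AK3* and *DDIT3*. The genes were chosen by symbol from the 58336 genes of the deposited count table, and each of the 10 matched 1 Ensembl identifier. A2780 is an established human ovarian cancer line, grown in RPMI 1640 with serum and insulin. Cells received DMSO vehicle, or 6 µM TH588 (TH-588 in the sample labels), a first-generation mitotic MTH1 inhibitor, for 48 h. The sample labels give no time for DMSO. Both groups were the same line, with no other agent named in the labels, and RNA from 3 independent experiments per treatment (replicates A, B and C) was sequenced. The comparison asks which transcripts differ after 48 h of the inhibitor, against vehicle.

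Proteins that enter the ER fold there with the help of chaperones, and unfolded protein is sensed by a trio of transmembrane proteins. IRE1 (encoded by *ERN1*) splices the mRNA of the transcription factor XBP1, ATF6 is cut in the Golgi and released as a transcription factor, and PERK (encoded by *EIF2AK3*) phosphorylates eIF2α, which slows translation while favouring ATF4 and its target CHOP (encoded by *DDIT3*). In the textbook unfolded protein response, XBP1 and ATF6 raise the ER chaperones and CHOP rises through PERK. Secretory and rapidly dividing cancer cells depend on this system to balance protein synthesis against folding capacity.

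Total counts were 28537837 in TH588 replicate A, the shallowest library, and 77634048 to 99074175 in the other 5. *SNORD3A* took 21.9% of the counts of TH588 replicate A and 7.68% to 13.0% of those of the others. Of the 3 ovarian lineage markers checked, *PAX8*, *WT1* and *MUC16* each lay under 0.3 CPM in every library. These markers do not bear out the ovarian label, and their absence alone cannot decide it. The authors report authenticating their lines through short tandem repeats. Of 6 epithelial markers, 4 lay under 0.3 CPM in every library, while *EPCAM* and *KRT18* passed the test as higher. The summed epithelial level was 3.73 to 4.57 CPM under DMSO and 10.7 to 12.1 CPM under TH588. Of 6 markers of other cell types, *CD3E* had 0 counts in all libraries and none passed the test. In edgeR's quasi-likelihood test, *COL1A1* and *DCN* were the 2 that could be tested, and their summed list level was 10.2 to 11.7 CPM under DMSO and 9.45 to 11.1 CPM under TH588. The part of these markers in the results below was not tested.

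The ER stress response element (ERSE) is the promoter sequence through which NF-Y and ATF6 act together on ER chaperone genes, and it is shown here because it separates the members by sequence independently of their counts. RefSeq promoter windows on GRCh38.p14, from 250 bases before to 50 bases after an annotated start, were present for all 10 genes. Windows were searched on both strands for CCAAT, 9 bases of any kind and then CCACG. The element was found for 4 of the 10 genes, *HSPA5*, *HSP90B1*, *CALR* and *XBP1*, and in 27 of all 35116 windows (0.0769%). The other 6 members had no match with these letters in their windows. The runs below are 5′ to 3′ on the strand of the gene, and capitals mark the element. The first lies 250 to 40 bases before the *HSPA5* start, at chr9:125241383-125241593 on the minus strand.
HSPA5: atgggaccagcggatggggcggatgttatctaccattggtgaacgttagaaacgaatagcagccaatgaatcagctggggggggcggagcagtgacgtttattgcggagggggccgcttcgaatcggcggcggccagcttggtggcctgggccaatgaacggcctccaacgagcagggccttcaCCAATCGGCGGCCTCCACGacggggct

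*HSP90B1* held the element on each strand, and both matches lay within the gene model of the deposited table, which begins further upstream at base 103930107 of chromosome 12. Each match is shown with the 5 bases on either side. The run with the forward match is chr12:103930211-103930239, and the run with the reverse match, which reads as the reverse complement of the element, is chr12:103930316-103930344, both on the plus strand.
HSP90B1, forward: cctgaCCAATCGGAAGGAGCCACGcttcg
HSP90B1, reverse: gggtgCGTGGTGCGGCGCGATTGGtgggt

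The *CALR* match was on the reverse strand and far from the start, 225 to 207 bases before it, within chr19:12938359-12938577 on the plus strand.
CALR: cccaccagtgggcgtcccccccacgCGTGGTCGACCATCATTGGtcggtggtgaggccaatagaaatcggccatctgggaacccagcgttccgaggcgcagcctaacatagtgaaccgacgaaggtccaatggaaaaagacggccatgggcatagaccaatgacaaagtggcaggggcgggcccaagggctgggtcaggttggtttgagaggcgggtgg

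The *XBP1* match was on the forward strand, 52 to 34 bases before the start, within chr22:28800598-28800682 on the minus strand.
XBP1: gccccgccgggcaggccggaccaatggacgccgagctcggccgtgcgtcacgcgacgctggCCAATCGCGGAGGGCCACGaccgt

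No member's window held the related element ERSE-II, which is ATTGG, 1 base of any kind and CCACG (0.0541% of all windows), the XBP1 element TGACGTGG (0.729%) or the C/EBP-ATF element TGATGNAAN (3.61%). A match is a description of the letters and shows no binding. The absence of one says nothing of sequence outside the window, or of elements within it that depart from these exact letters.

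Of the 10 transcripts, 5 passed the test after TH588. *HSPA5*, *HSP90B1* and *XBP1* were lower, and *ERN1* and *DDIT3* were higher. The other 5 (*CALR*, *PDIA4*, *DNAJB9*, *ATF6* and *EIF2AK3*) did not pass. All 10 could be tested. The test was edgeR's quasi-likelihood test on TMM-scaled counts, and a transcript passed where its Benjamini-Hochberg adjusted p over the 15844 genes tested was under 0.05. In that fit 49.6% of all genes passed, 24.2% as higher and 25.3% as lower, so 5 of 10 is near the background and is no result about the group. For 6 of the 10 the DMSO and TH588 libraries did not overlap, against 57.7% of all genes tested. The median log2 fold change was -0.06 over the 10 genes and 0.02 over all genes tested, or 0.05 and 0.13 with library size only. Levels are given as CPM, which relates a count to the TMM-scaled size of its library, and ± is the SD over the 3 libraries of a group throughout. An exact permutation test of 3 libraries against 3 cannot go below a two-sided p of 0.1, so calls rest on the model fitted across all genes. In RNA of a whole culture, fewer cells that express a gene and less RNA per cell cannot be told apart.

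**Figure D1:**
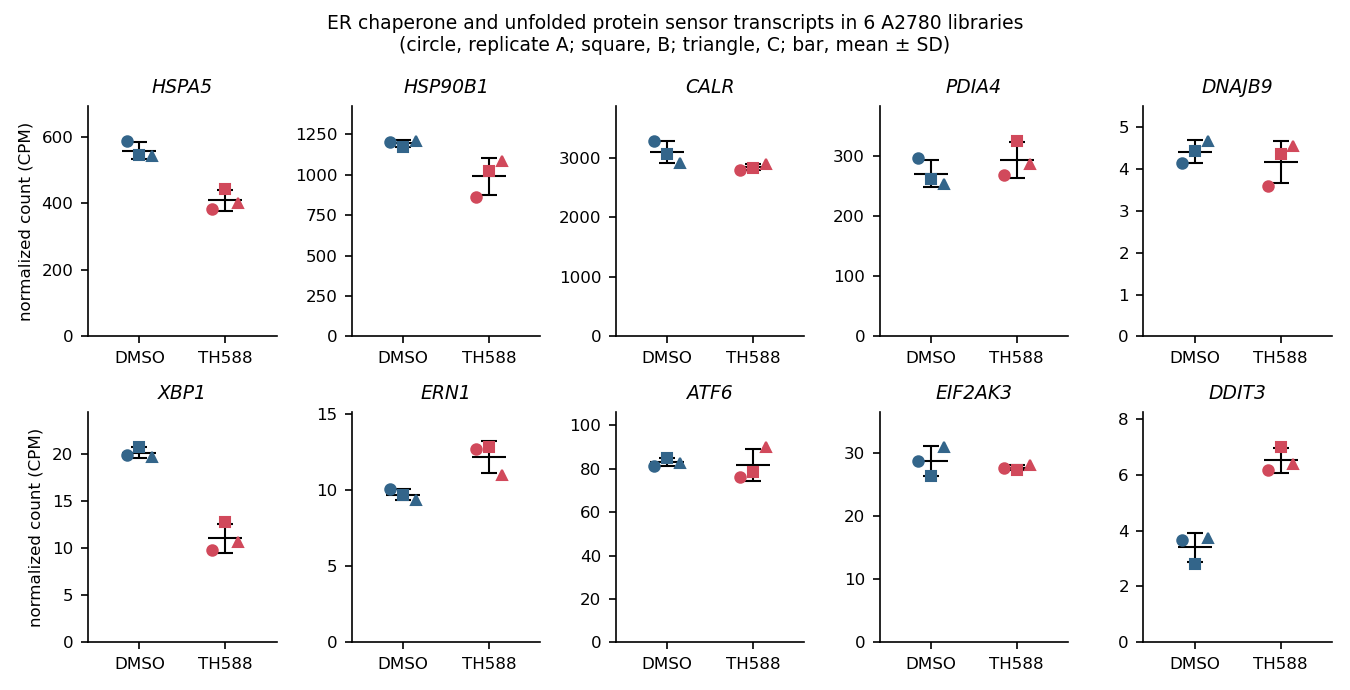
Normalized counts (CPM, linear axes from 0) of the 10 transcripts in 3 DMSO and 3 TH588 libraries of A2780 cells, with symbols for replicates and bars for the mean ± SD. The groups stood apart for *HSPA5*, *HSP90B1*, *XBP1*, *ERN1* and *DDIT3*, and also for *CALR*, whose 2922 CPM in DMSO replicate C lay close above the 2905 CPM of TH588 replicate C.

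Among the chaperones, *HSPA5* fell most. It encodes BiP (GRP78), the HSP70 of the ER, which binds unfolded chains and holds the sensors inactive (ENSG00000044574, chromosome 9 of GRCh38, 125234853 to 125241330, minus strand). In order of replicates A, B and C, as everywhere below, it measured 587.6, 545.2 and 541.1 CPM under DMSO and 383.9, 443.6 and 399.3 CPM under TH588. The highest TH588 library thus lay well under the lowest DMSO library. Its log2 fold change was -0.45, with a standard error of 0.08 and a 95% interval from -0.63 to -0.27 (edgeR's adjusted p = 0.000728), a fall of 26.7%. It passed in each of the 14 other fits and stayed between -0.51 and -0.34.

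*HSP90B1* encodes GRP94, the HSP90 of the ER, which matures integrins, Toll-like receptors and insulin-like growth factors (ENSG00000166598, chromosome 12, 103930107 to 103953645, plus strand). It stood at 1199, 1169 and 1210 CPM under DMSO and at 861.4, 1025 and 1082 CPM under TH588. The vehicle libraries were tightly grouped, and the treated libraries all lay under them but spread widely, with replicate A lowest. A log2 fold change of -0.27 was fitted, with a standard error of 0.09 and an interval from -0.47 to -0.07 (edgeR's adjusted p = 0.0286). Without TH588 replicate A it was -0.17 and did not pass, nor did it pass without DMSO replicate A (-0.24) or C (-0.24), or with library size only (-0.16). Exons of other genes cover 7.6% of its exon bases, and its pseudogene *HSP90B2P* stood at 1.11 ± 0.328 CPM under DMSO and 1.54 ± 0.138 CPM under TH588.

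*CALR* encodes calreticulin, the lectin that retains glycoproteins for folding and buffers ER calcium (ENSG00000179218, chromosome 19, 12938578 to 12944489, plus strand). Its levels were 3290, 3072 and 2922 CPM under DMSO and 2804, 2824 and 2905 CPM under TH588. The treated libraries lay just under the vehicle libraries. TH588 over DMSO gave a log2 fold change of -0.12 (95% interval -0.29 to 0.05, adjusted p = 0.224, edgeR's test), so a fall of the size fitted for *HSPA5* lay outside its interval.

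*PDIA4* encodes ERp72, a protein disulfide isomerase (ENSG00000155660, chromosome 7, 149003062 to 149028641, minus strand). It measured 295.5, 261.6 and 252.6 CPM under DMSO against 267.6, 324.5 and 285.4 CPM under TH588, and the groups overlapped. Its log2 fold change of 0.12 had an interval from -0.09 to 0.32 (adjusted p = 0.331, edgeR's test), which leaves out the fitted value of *HSPA5*. *DNAJB9* encodes ERdj4, a BiP co-chaperone that targets misfolded protein for degradation (ENSG00000128590, chromosome 7, 108569568 to 108574850, plus strand). It was low, at 4.14, 4.44 and 4.68 CPM under DMSO and 3.59, 4.36 and 4.54 CPM under TH588, with overlap. Its log2 fold change was -0.07, and its interval ran from -0.38 to 0.23 (adjusted p = 0.701, edgeR's test). Exons of *THAP5* and *PNPLA8*, which fell by 0.48 and rose by 1.74 on the log2 scale, cover 6.5% of the exon bases of *DNAJB9*.

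In the IRE1 arm the kinase and its substrate moved in opposite directions. *XBP1*, the transcription factor whose mRNA IRE1 splices (ENSG00000100219, chromosome 22, 28794555 to 28800597, minus strand), stood at 19.9, 20.8 and 19.7 CPM under DMSO. After TH588 it stood at 9.75, 12.7 and 10.6 CPM, with no overlap. This was a log2 fold change of -0.86, with a standard error of 0.12 and an interval from -1.11 to -0.60 (edgeR's adjusted p = 6.7e-05), or a fall of 44.8%, and it passed in each of the 14 other fits, between -0.98 and -0.74. Counts per gene add the spliced and unspliced forms together, so splicing by IRE1 was not measured.

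*ERN1*, which encodes IRE1α (ENSG00000178607, chromosome 17, 64039142 to 64130819, minus strand), measured 10.1, 9.66 and 9.32 CPM under DMSO and 12.7, 12.8 and 11 CPM under TH588. The groups did not overlap, and TH588 replicate C lay nearest the vehicle libraries. Its log2 fold change was 0.33, with a standard error of 0.11 and an interval from 0.08 to 0.57 (edgeR's adjusted p = 0.0286). Of the fits that left out a library, it did not pass without DMSO replicate B (0.32), DMSO replicate C (0.32) or TH588 replicate B (0.28), and it was positive in every fit run.

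*ATF6*, the sensor that is cleaved to a transcription factor (ENSG00000118217, chromosome 1, 161766294 to 161964070, plus strand), stood at 81.4, 85.0 and 82.7 CPM under DMSO and at 76.3, 78.5 and 90.2 CPM under TH588. The treated libraries fell on both sides of the vehicle libraries. Its log2 fold change was -0.02, with an interval from -0.21 to 0.16 (adjusted p = 0.838, edgeR's test), and the sign changed in 3 of the 14 other fits. Cleavage of the protein is not seen in RNA counts.

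In the PERK arm the sensor did not pass the test while its distal effector did. *EIF2AK3*, which encodes PERK (ENSG00000172071, chromosome 2, 88556741 to 88627576, minus strand), measured 28.8, 26.4 and 31.0 CPM under DMSO and 27.7, 27.3 and 28.1 CPM under TH588. The treated libraries lay inside the range of the vehicle libraries. Its fitted log2 fold change was -0.05, with an interval from -0.25 to 0.14 (adjusted p = 0.642, edgeR's test). Exons of other genes cover 15.1% of its exon bases.

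*DDIT3*, which encodes CHOP, a transcription factor tied to cell death under lasting ER stress (ENSG00000175197, chromosome 12, 57516588 to 57521737, minus strand), rose most of the 10. It measured 3.66, 2.79 and 3.74 CPM under DMSO and 6.16, 7.0 and 6.36 CPM under TH588. The lowest treated library lay well above the highest vehicle library. A log2 fold change of 0.94 was fitted, with a standard error of 0.15 and an interval from 0.62 to 1.26 (edgeR's adjusted p = 0.000206), or 1.92-fold, and it passed in each of the 14 other fits, between 0.81 and 1.05. Exons of *MARS1*, *MBD6* and ENSG00000285133 (0 counts in every library) cover 39.6% of its exon bases, and the library kit marks no strand, so its level is uncertain. *MARS1*, a methionyl-tRNA synthetase on the opposite strand, went the other way, from 264.6 ± 22 CPM down to 180.0 ± 7.66 CPM (log2 fold change -0.56). *MBD6*, also on the opposite strand, rose by 0.45 on the log2 scale.

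**Figure D2:**
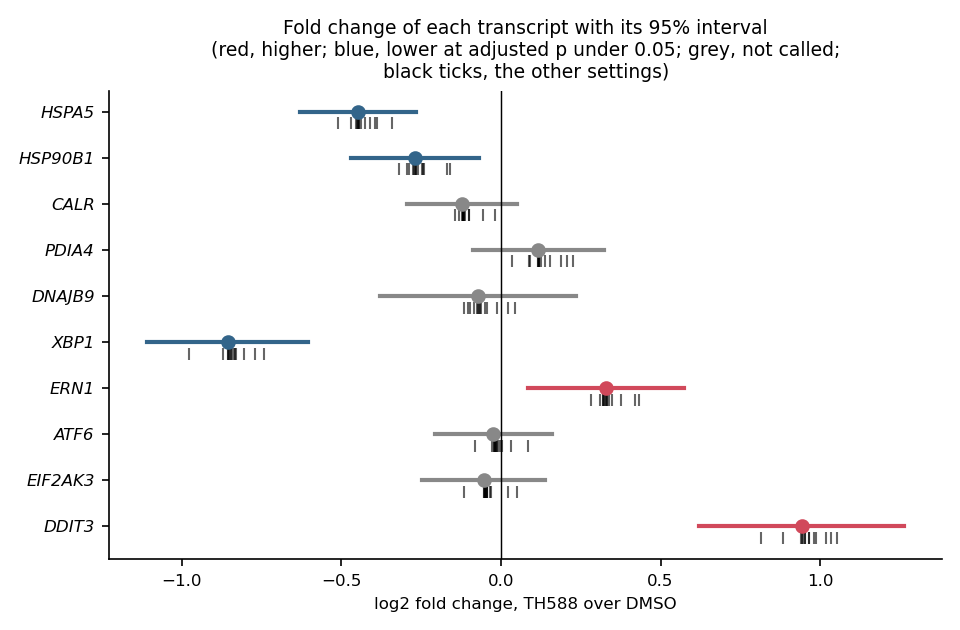
Log2 fold change of each transcript, TH588 over DMSO, with its 95% interval, and as black ticks the value in each of the 14 other fits. The ticks of *DNAJB9*, *ATF6* and *EIF2AK3* fall on both sides of 0, while those of the other transcripts stay on one side of it. Only *XBP1*, *HSPA5* and *DDIT3* passed the test in every fit.

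Levels between genes were compared per kilobase of exon (FPKM, from the exon lengths in the deposited table). With DMSO the order was *CALR* (1140 ± 68.2 FPKM), *HSP90B1* (254.0 ± 4.49), *HSPA5* (142.8 ± 6.58), *PDIA4* (82.4 ± 6.90), *ATF6* (10.5 ± 0.231), *XBP1* (6.64 ± 0.189), *EIF2AK3* (5.29 ± 0.431), *DDIT3* (2.60 ± 0.404), *DNAJB9* (1.56 ± 0.0952) and *ERN1* (0.891 ± 0.0337), as mean FPKM. No neighbours in that order overlapped between libraries. *CALR* alone made up 68.2% to 69.8% of the summed FPKM of the 10 genes under DMSO and 69.4% to 72.7% under TH588. The share of *HSPA5* was 8.57% to 8.78% under DMSO and 6.73% to 7.57% under TH588.

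After TH588, *XBP1* moved from the sixth to the eighth place, at 3.65 ± 0.507 FPKM, under *EIF2AK3* at 5.09 ± 0.0728 FPKM and *DDIT3* at 4.98 ± 0.332 FPKM. The libraries of *EIF2AK3* and *DDIT3* then overlapped, as did those of *HSPA5* (104.6 ± 7.93 FPKM) and *PDIA4* (89.3 ± 8.89 FPKM). *ERN1* stayed last at 1.12 ± 0.0961 FPKM. Lengths are summed over all annotated exons, so FPKM understates genes such as *ERN1* if a shorter isoform is used. The place of *DDIT3* is also uncertain, because exons of other genes cover 39.6% of its exon bases.

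**Figure D3:**
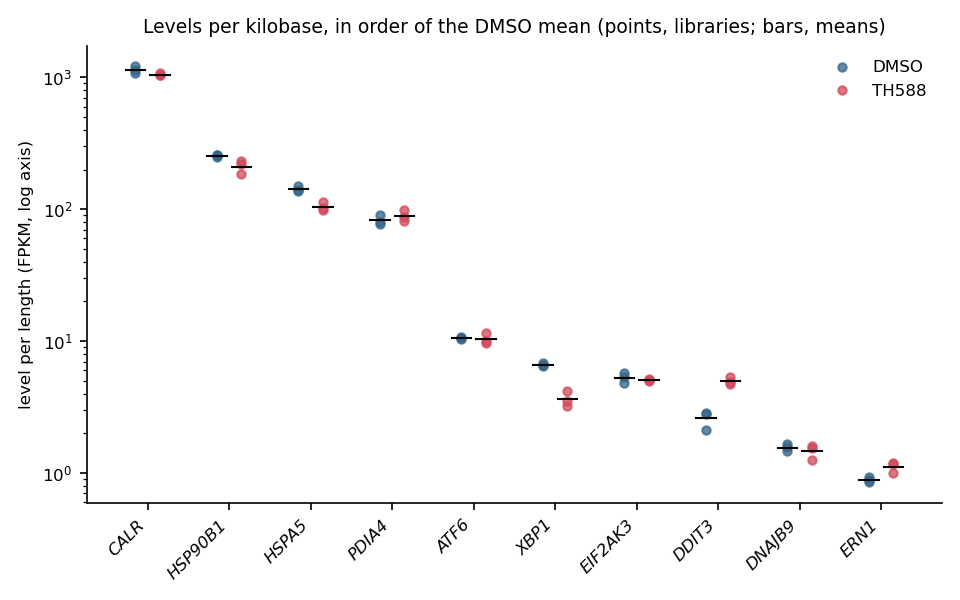
Levels per kilobase (FPKM, log axis) of the 10 transcripts, ordered by the DMSO mean, with points for libraries and bars for means. The 4 abundant chaperones lie between 77.1 and 1212 FPKM, and *XBP1* and *DDIT3* exchange order between the treatments.

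Ratios of 2 transcripts within a library do not depend on how libraries are scaled, and 5 were taken after the values were seen, as a description. *HSPA5* over *PDIA4*, as FPKM, was 1.67, 1.75 and 1.80 under DMSO and 1.20, 1.15 and 1.17 under TH588. *HSPA5* over *HSP90B1*, which was itself lower, was 0.589, 0.560 and 0.537 under DMSO and 0.535, 0.520 and 0.443 under TH588, so these groups barely separated. *XBP1* over *ERN1* was 7.11, 7.71 and 7.57 under DMSO and 2.75, 3.56 and 3.48 under TH588. *DDIT3* over *XBP1* was 0.426, 0.311 and 0.440 under DMSO and 1.46, 1.27 and 1.39 under TH588. For *HSPA5* over *PDIA4* and for both ratios with *XBP1* the groups lay well apart. *DDIT3* over *ATF4*, its upstream activator, was 0.0402 ± 0.00451 under DMSO and 0.101 ± 0.0151 under TH588. Ratios with *DDIT3* carry the uncertainty of its level given above.

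**Figure D4:**
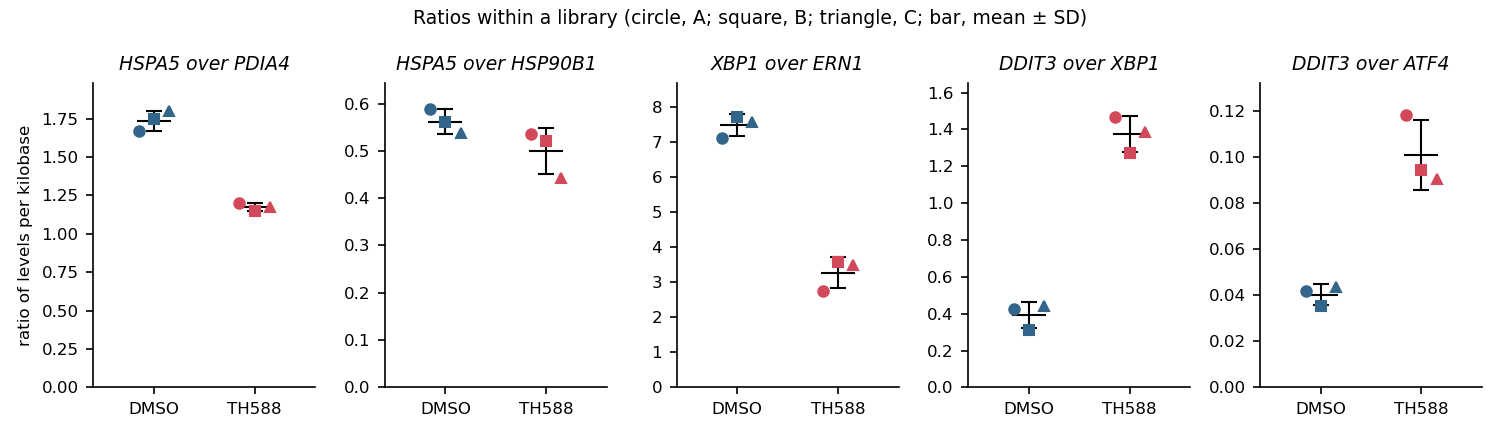
Ratios of levels per kilobase within each library, with symbols for replicates and bars for the mean ± SD (linear axes from 0). *HSPA5* over *PDIA4* and *XBP1* over *ERN1* are lower in each TH588 library, the groups of *HSPA5* over *HSP90B1* nearly meet at 0.537 under DMSO and 0.535 under TH588, and *DDIT3* over *XBP1* and over *ATF4* are higher.

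Other genes of the pathway were described in 6 lists that hold none of the 10 genes. The ER folding list (further chaperones, co-chaperones, isomerases and glycoprotein sensors) had 24 of 40 genes lower and 4 higher, against 25.3% lower and 24.2% higher among all genes tested, and a median log2 fold change of -0.29 against 0.02. *HYOU1*, the BiP nucleotide exchange factor GRP170, was lower, at 294.8, 245.7 and 249.7 CPM under DMSO and 191.1, 242.5 and 196.0 CPM under TH588 (log2 fold change -0.33). It did not pass without DMSO replicate A (-0.22), TH588 replicate A (-0.25) or TH588 replicate C (-0.26), or with library size only (-0.22). Among the falls, the rule for named genes picked *MESD*, a chaperone of LRP receptors (log2 fold change -0.96), and *TMX4*, a thioredoxin-like ER membrane protein (-0.77). *CRELD1* rose most, with 13.0 ± 0.783 CPM under DMSO and 33.8 ± 0.854 CPM under TH588 (log2 fold change 1.38). Also higher were *ERO1B*, an ER oxidase (1.15), and, named after their values were seen, *SIL1*, a further BiP exchange factor (0.61), and *FKBP10*, a prolyl isomerase of collagen folding (0.33). Without DMSO replicate A, 15 genes of the list were lower. With library size only, 12 genes were lower and 5 higher (median -0.19). That scaling moved the median of all genes to 0.13 and the share of higher calls among all called genes to 60.4%, from 48.9%.

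The list of ER import and signal peptide processing (translocon, signal recognition particle, signal peptidase and oligosaccharyl transferase) had 20 of 29 genes lower and 0 higher in edgeR's test (25.3% and 24.2% of all genes), with a median of -0.35. At an unadjusted p under 0.05 it had 1 higher, and DESeq2 and limma-voom called 0 higher, while edgeR called 1 higher with library size only, with at least 10 counts in every library, and without TH588 replicate A or C. The number of genes lower was 14 with library size only (median -0.24) and 14 without DMSO replicate C. It was 16 without DMSO replicate B or TH588 replicate B. *SRPRB*, a subunit of the signal recognition particle receptor, fell from 66.7 ± 3.34 CPM under DMSO to 34.9 ± 1.96 CPM (log2 fold change -0.94). *STT3A*, the catalytic subunit of the oligosaccharyl transferase at the translocon, fell from 260.8 ± 23.9 CPM under DMSO to 149.6 ± 21.3 CPM (log2 fold change -0.80).

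ER-associated degradation genes, which return misfolded proteins to the cytosol for the proteasome, had 10 of 30 higher and 6 lower, with a median of 0.05. Among all genes tested 24.2% were higher and 25.3% lower, so these counts are near the background. Without DMSO replicate B, 6 were higher, and without TH588 replicate B the median was -0.01. *RNF5*, an ER ubiquitin ligase (log2 fold change 1.13), and *OS9*, a lectin that delivers glycoproteins to the HRD1 complex (0.75), rose most by the rule. *SYVN1*, which encodes the ligase HRD1 itself, rose from 39.1 ± 2.36 CPM under DMSO to 55.4 ± 5.26 CPM (log2 fold change 0.50). *EDEM3*, a mannosidase (-0.63), and *DERL1*, a retrotranslocation channel (-0.62), were the largest falls. *HERPUD1* and *EDEM1*, both textbook targets of the unfolded protein response, had log2 fold changes of 0.12 (interval -0.08 to 0.32) and 0.08 (interval -0.08 to 0.25) and did not pass.

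In the list of PERK-ATF4-CHOP outputs, 16 of 17 genes could be tested (*NUPR1* had 0 counts in every DMSO library), and 5 were higher and 7 lower (median -0.20), beside 24.2% and 25.3% of all genes. With library size only, or without DMSO replicate A or C, 4 were lower. *ATF4* itself, the transcription factor translated when eIF2α is phosphorylated, had an RNA level of 168.9, 152.6 and 164.2 CPM under DMSO and 100.4, 142.7 and 135.6 CPM under TH588. Its log2 fold change was -0.36 (adjusted p = 0.0235, edgeR's test), which did not pass without DMSO replicate A (-0.30) or C (-0.33), or with library size only (-0.24). The genes that were higher were *SESN2* (log2 fold change 1.82), *DDIT4* (1.5), *PPP1R15A* (1.28), *TNFRSF10B* (1.21, named after its value was seen) and *ATF3* (0.70). *SESN2* and *DDIT4* restrain mTOR, *PPP1R15A* encodes GADD34, which reverses eIF2α phosphorylation, and *TNFRSF10B* is a death receptor. Exons of a gene on the opposite strand cover 41.2% of the exon bases of *DDIT4*. All 5 are also known as genes that respond to p53 or DNA damage, as background. *ATF3* was low, at 1.22, 1.36 and 1.4 CPM under DMSO and 1.46, 2.65 and 2.18 CPM under TH588, and did not pass without DMSO replicate A (0.66), TH588 replicate B (0.49) or TH588 replicate C (0.70). *STC2*, a secreted glycoprotein (-1.29), and *VLDLR*, a lipoprotein receptor (-1.03), were the largest falls. *TRIB3* and *CHAC1*, both targets of ATF4 and CHOP, had log2 fold changes of 0.24 (interval -0.07 to 0.55, adjusted p = 0.18, edgeR's test) and 0.52 (interval 0.07 to 0.96, adjusted p = 0.0541, edgeR's test). *CHAC1* passed in 4 of the 14 other fits.

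Sensor partners and related sensors had 4 of 20 tested genes higher and 5 lower (median -0.07), against a background of 24.2% and 25.3%. With library size only, or without DMSO replicate B or C, 3 were lower, and with library size only the median was 0.03. *MBTPS1*, which encodes the Golgi protease S1P that makes the first cut of ATF6, rose from 96.7 ± 4.44 CPM under DMSO to 130.1 ± 2.39 CPM (log2 fold change 0.43). *MBTPS2*, which encodes S2P, which makes the next cut, had a log2 fold change of -0.21 and did not pass (adjusted p = 0.0949, edgeR's test), except without TH588 replicate A (-0.26). *NFYB*, a subunit of the NF-Y factor that reads the CCAAT part of the element shown above, fell by 0.77 on the log2 scale, whereas the subunit *NFYC* was higher (0.24), a call not held in 6 of the 14 other fits. *MAP3K5*, the kinase ASK1 that acts downstream of IRE1, was also picked by the rule as lower (-0.77). The further genes called were named after their values were seen. They were, as higher, *CREB3L1* (1.34) and *CREB3L4* (0.83), both membrane-bound transcription factors related to ATF6. As lower they were *RTCB* (-0.43), the ligase that joins the cut ends of the *XBP1* mRNA, *BFAR* (-0.34) and *CREB3* (-0.33). *CREB3L1* was low, at 0.29, 0.75 and 0.78 CPM under DMSO and 1.20, 1.77 and 1.58 CPM under TH588. Its interval was wide, from 0.60 to 2.07. The call of *NFYC* was lost when any 1 of the DMSO replicates (0.24 to 0.26) or TH588 replicate C (0.22) was left out. *CREB3* did not pass when any 1 of the DMSO replicates was left out (-0.33 to -0.31), nor did *BFAR* without DMSO replicates B (-0.28) or C (-0.33) or TH588 replicate A (-0.21). *ATF6B*, the ATF6 paralogue, had a log2 fold change of 0.30 (interval 0.03 to 0.57, adjusted p = 0.062, edgeR's test) and passed in 6 of the 14 other fits. The other eIF2α kinases *EIF2AK1* (HRI), *EIF2AK2* (PKR) and *EIF2AK4* (GCN2) had log2 fold changes of -0.06, -0.08 and -0.05 and did not pass, and with library size only these were 0.04, 0.02 and 0.06.

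Of 6 transcripts known as substrates of direct decay by IRE1, 3 were higher, 1 was lower and 2 did not pass (median 0.31), and 2 were lower without TH588 replicate A. With 24.2% of all genes higher and 25.3% lower, nothing particular to these 6 genes is read from the counts. *COL6A1*, a collagen chain (0.72), *HGSNAT*, a lysosomal acetyltransferase (0.46), and *PDGFRB*, a growth factor receptor named after its value was seen (0.61), were higher. *PDGFRB* did not pass without DMSO replicate C (0.57) or TH588 replicate B (0.46). *SCARA3*, named after its value was seen, fell from 3.63 ± 0.494 CPM under DMSO to 1.52 ± 0.379 CPM (log2 fold change -1.30).

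**Figure D5:**
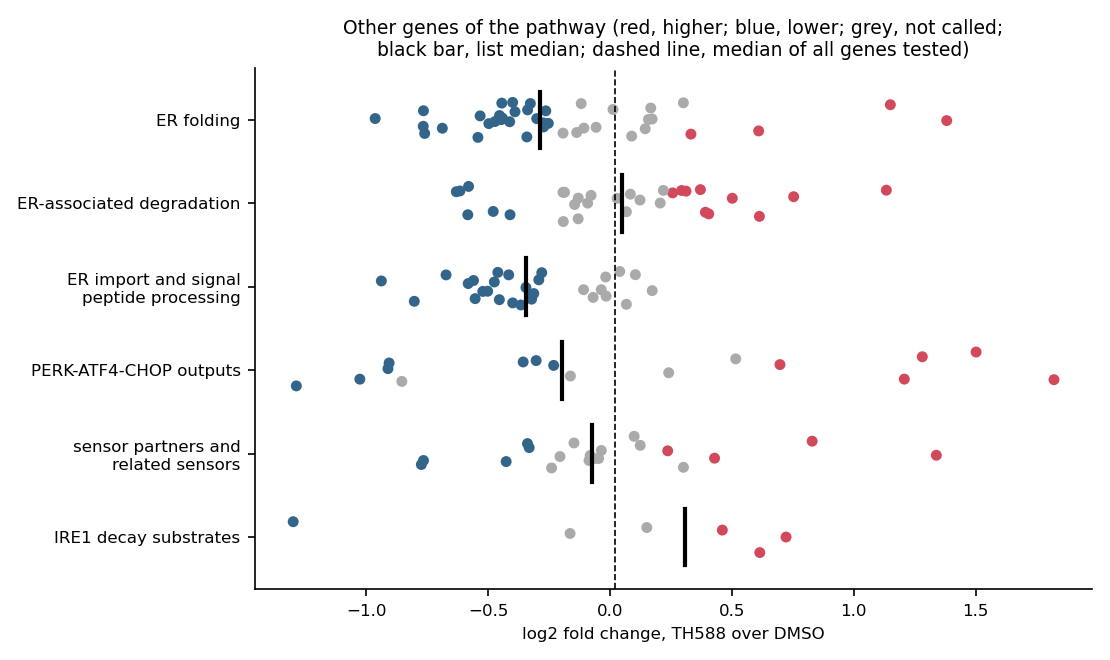
Log2 fold changes, TH588 over DMSO, of the genes of 6 lists, with points for genes (red, higher; blue, lower; grey, not called), a black bar for each list's median and a dashed line for the median of all genes tested (0.02). The ER import list has its median at -0.35 with 0 red points, and the degradation list has its median at 0.05 with points of both colours.

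The promoter element shown above was then used to group genes by sequence alone. Beyond the 4 members, 12 further genes with an ERSE in a window could be tested, of which 4 were lower and 3 higher (median log2 fold change -0.15), which is near the 25.3% and 24.2% of all genes. Lower were *CANX*, the membrane lectin calnexin (-0.45), *SERP1*, which steadies membrane proteins at the translocon (-0.43), *CRELD2*, an ER stress-inducible isomerase (-0.40), and *PDIA6*, a disulfide isomerase of which 25.2% of exon bases are shared with *ATP6V1C2* on the opposite strand (-0.27). Higher were *ERO1B* (1.15), *TRIM5*, a retroviral restriction factor (0.84), and *TMEM120A* (0.59). Of these, *CANX*, *CRELD2*, *PDIA6* and *ERO1B* also belong to the ER folding list and were counted there. With library size only, none of the 4 lower genes passed, with log2 fold changes from -0.34 to -0.17. *PDIA6* also did not pass without DMSO replicates A (-0.23) or C (-0.24) or TH588 replicate C (-0.20), nor *CRELD2* without DMSO replicates A (-0.34) or B (-0.38) or TH588 replicates A (-0.24) or C (-0.40). Together with the members, 7 of 16 such genes were lower, 3 were higher and 6 did not pass (median -0.22), a count that includes the members already described. This grouping was made after the members' values were seen, and no test was run on it.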

How the data were processed

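RNA of A2780 cells was sequenced after DMSO, or after 48 h with 6 µM TH588, in 3 libraries per group. The authors aligned reads to GRCh38 with TopHat and counted them per gene with featureCounts 1.4.6, and the deposited values are raw counts per gene, beside the summed exon length of each gene in bases. The strand setting and the handling of reads that match several genes are not given in the sources used here. Of 58336 genes, 57754 were matched to a symbol by Ensembl identifier, and coordinates are those of the deposited table.

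Counts were compared with edgeR 4.0.16 in R 4.3.3 (TMM, default filter on low counts, quasi-likelihood test, Benjamini-Hochberg adjusted p under 0.05 over 15844 genes). A standard error was taken as log2 fold change over the root of the F statistic, and intervals from the t distribution of the fit. CPM and FPKM use the TMM-scaled library. Alternatives were DESeq2 1.42.0 and its size factors, library size only, limma-voom (3.58.1), 2 other filters, an adjusted p under 0.01, a replicate block, removal of the 10 most abundant genes, and each library left out. The series' design text gives 3 independent experiments, while the sample labels give only replicate letters, so p-values measure the spread between these libraries. Replicates differed by more than sampling noise (chi-square per degree of freedom 25.2 to 179.9).

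The members and lists were chosen with earlier results of these data known. Named genes are the members, 15 regulators fixed by name, and in each list the 2 largest rises and 2 largest falls among genes called, with groups that did not overlap and a mean log2 CPM no lower than 2. Promoter windows are from RefSeq on GRCh38.p14.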

Additional observations from a re-analysis of the deposited data

How the results depend on the processing

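*HSPA5*, *XBP1* and *DDIT3* kept their direction and passed the test in all 14 other fits. *HSP90B1* and *ERN1* kept their direction but each missed the threshold in 4. *CALR* and *PDIA4* kept their direction and did not pass in any. The number of members called, 5 in the comparison reported, was 3 at an adjusted p under 0.01 and ranged from 3 to 5 when each library was left out, with 3 without DMSO replicate C. At an adjusted p under 0.01 the ER folding list had 18 genes called against 28, and the degradation list 10 against 16, while with library size only the ER folding list had 17. Signs changed for values near 0 that never passed the test. With library size only, *DNAJB9* was 0.044, *ATF6* 0.0831, *EIF2AK3* 0.0506, *EIF2AK1* 0.0371, *EIF2AK2* 0.0216 and *EIF2AK4* 0.0602. With each library left out in turn, *DNAJB9* ranged from -0.1166 to 0.021, *ATF6* from -0.0817 to 0.0325, *EIF2AK3* from -0.1168 to 0.0222 and *EIF2AK4* from -0.0648 to 0.0101. The positive ends were reached without TH588 replicate A, except that of *EIF2AK3*, reached without DMSO replicate C, and *ATF6* was also positive without TH588 replicate B (0.0045). The cause was not tested.

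Across genes, libraries that share a replicate letter had departures from the group mean with correlations of -0.326 (A), -0.321 (B) and -0.041 (C). These values show no positive likeness by letter. Pairs with unlike letters ran from -0.27 (DMSO replicate C with TH588 replicate B) to 0.543 (DMSO replicate A with TH588 replicate B). Departures from a mean of 3 libraries depend on each other, so the correlations cannot decide whether the experiments were paired. The fit with a replicate block called 7195 genes against 7852, and 4 members, since *ERN1* (0.33) missed the threshold there. A floor of 3 counts is 0.105 CPM at the depth of TH588 replicate A and 0.0303 to 0.0386 CPM elsewhere, so the least abundant genes are the least certain.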
